A study of Homo sapiens with 6 samples.

Results

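The mRNAs of the small ribosomal subunit proteins were followed through an RNA immunoprecipitation (RIP-seq) for LARP1. They were 30 RPS genes, chosen by Ensembl gene ID, of 60554 gene IDs in the count files. The ubiquitin fusion gene RPS27A and FAU, which also encode small subunit proteins, were left out by that choice. All 30 members had reads in every library and all 30 passed the low-count filter.

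RNA came from the free 40S subunit fraction of HCT116 cells, a human colorectal carcinoma line, and the labels give no treatment or genotype for any group. The groups were RNA pulled down by antibody to LARP1 (LARP1 IP, n = 2), RNA recovered with control IgG of normal rabbit serum (IgG IP, n = 2) and RNA of the fraction without immunoprecipitation (Input, n = 2), with the libraries of a group labelled as biological replicates. The IgG IP measures background and Input measures what the fraction holds. Library totals ran from 4135463 to 8069554 counts. The 2 most abundant genes, neither of them a member, took 87.88% and 88.65% of the Input libraries, 70.85% and 71.5% of the IgG IP and 26.64% and 21.27% of the LARP1 IP. The gene table used here pairs no Ensembl ID with a symbol, so genes outside the 30 were not named, and epithelial markers of the line were not analysed here.

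The small subunit binds mRNA and carries the decoding site, and each of its proteins is made from its own gene. Messages for ribosomal proteins belong to the terminal oligopyrimidine (TOP) class: the capped end of the RNA is a C followed by an unbroken run of pyrimidines, and translation of the class is switched together by mTORC1 signalling. LARP1 is known to bind the cap and the pyrimidine run of these messages, to hold them out of translation when mTORC1 is inactive, and to stabilise them.

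The annotated starts of the members were read first, since the pyrimidine run is the feature LARP1 is known to contact. RefSeq promoter entries (GRCh38.p14, matched by symbol) were used for 23 of the 30 members. The other 7 were not matched. A run was counted where a C was followed by at least 4 more bases, each C or T, on the sense strand. Its first C had to lie within 5 bases of the annotated start. Such a run was present in 17 of the 23 members (73.9%), with a median length of 11 bases and a range of 7 to 15, and in 18.1% of all 35116 promoter entries, where its median length was 6 bases. With the first C within 2 bases of the start the run was present in 11 members, against 8.53% of all entries, and within 10 bases in 21, against 31.4%. These windows hold annotated starts and not measured capped ends. The starts below run from 10 bases before the annotated start to 20 bases from it, 5′ to 3′ on the sense strand. They are shown for members at both ends of the enrichment order and for members whose annotated start differs from a TOP start. Capitals mark the longest run that begins within 10 bases of the start.
RPS21, chr20:62387093-62387122, plus strand: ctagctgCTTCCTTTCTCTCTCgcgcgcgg
RPS19, chr19:41860245-41860274, plus strand: ccccgtcgttCCCTTTCCCCTggctggcag
RPS14, chr5:150449720-150449749, minus strand: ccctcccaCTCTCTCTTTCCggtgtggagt
RPS28, chr19:8321486-8321515, plus strand: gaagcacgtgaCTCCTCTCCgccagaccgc
RPS6, chr9:19380217-19380246, minus strand: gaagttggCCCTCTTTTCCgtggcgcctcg
RPS24, chr10:78033853-78033882, plus strand: aatcgtggttCTCTTTTCCTCCTTggctgt
RPSA, chr3:39406710-39406739, plus strand: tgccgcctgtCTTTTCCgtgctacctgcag
RPS26, chr12:56041908-56041937, plus strand: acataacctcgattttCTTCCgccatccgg
RPS4X, chrX:72277229-72277258, minus strand: ctccagccccaatttctacgcgcaccggaa
RPS29, chr14:49598691-49598720, minus strand: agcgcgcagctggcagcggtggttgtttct
RPS19, RPS24 and RPSA have the first C of the run on the annotated start itself, with runs of 11, 14 and 7 bases. In RPS26 the run starts 6 bases downstream and holds 5 bases, and RPS4X and RPS29 have no run within 10 bases of the annotated start.

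The 30 members together held 16.4% and 20.9% of all counts in the LARP1 IP libraries, 1.08% and 1.22% in the IgG IP, and 0.587% and 0.582% of the Input counts. The means were 18.7% ± 3.2, 1.15% ± 0.097 and 0.585% ± 0.0038 (SD, n = 2 each). Both LARP1 IP libraries lay above all 4 controls, and the IgG IP libraries lay above Input. Outside the 2 most abundant genes, the members held 22.4% and 26.5% of the LARP1 IP, 3.71% and 4.27% of the IgG IP and 5.17% and 4.8% of Input, so that there the order of the controls turned. On that denominator the share in the LARP1 IP was 6.13 times that in the IgG IP and 4.91 times that in Input. An exact two-sided permutation test of 2 libraries against 2 gave p = 0.33 for each comparison of the first shares, the smallest p it allows.

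All 30 members were higher in the LARP1 IP than with control IgG by edgeR's quasi-likelihood test across 10788 genes, where 8.54% of all tested genes were higher and 2.29% lower. Their log2 fold changes had a median of 4.09, a 17-fold difference, with quartiles of 3.9 and 4.3, while the median of all tested genes was -0.06. The range ran from 2.17 (4.49-fold) for RPSA to 4.57 (23.7-fold) for RPS21, with standard errors (SE) between 0.41 and 0.55 and edgeR adjusted p between 0.000179 and 0.00671. A log2 fold change here is relative to most other genes of the library (TMM scaling), since no external standard was used. Of the 30, 28 were over 8-fold higher, as were 2.72% of all tested genes. Among the 100 tested genes with the highest log2 fold changes, 17 were members, with RPS21 at rank 33 and RPSA at rank 600. In both LARP1 IP libraries each of the 30 stood above both IgG IP libraries in CPM (counts scaled to library size, TMM-normalised), as did 27.3% of all tested genes. All 30 calls held under each alternative scaling, filter and fit and without each library in turn, by edgeR and by DESeq2. The number over 8-fold fell to 12 (0.714% of all genes) when libraries were scaled by their counts outside the 2 most abundant genes, a scaling that moved the median of all genes to -1.24 and that of the members to 2.86. With that scaling 3.3% of all genes were called higher and 37% lower, and with total counts 9.31% and 0.695%.

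Against Input, all 30 members were again higher, where 4.63% of all tested genes were higher and 1.52% lower. The comparison shares the LARP1 IP libraries with the one above. The median log2 fold change was 3.43 (10.7-fold), with quartiles of 3.22 and 3.55, against 0.03 for all tested genes. The range ran from 2.01 (4.02-fold) for RPSA to 4.12 (17.3-fold) for RPS19, with edgeR adjusted p between 0.000935 and 0.0148. Of the 30, 27 were over 8-fold higher, as were 2.43% of all tested genes. Only 2 members were among the 100 tested genes with the highest log2 fold changes over Input, with a best rank of 81, a median of 167.5 and RPSA at rank 556. Each member stood above both Input libraries in both LARP1 IP libraries in CPM, as did 28.8% of all tested genes. Without Input replicate 1 or Input replicate 2, edgeR called 0 of the 30 and 0 of all genes (adjusted p from 0.0648 to 0.159 and from 0.0817 to 0.281), although all 30 had an unadjusted p under 0.05, the medians were 3.50 and 3.41, and DESeq2 called all 30. Without LARP1 IP replicate 2 the median was 2.99 and 15 members were over 8-fold (1.48% of all genes). With counts outside the 2 most abundant genes as library sizes, the median was 2.38, that of all genes -0.92, and 1 member was over 8-fold (0.797% of all genes). There 1.71% of all genes were called higher and 10.4% lower, and with total counts 60.9% and 0.25%.

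All 30 members were therefore above both controls, as were 4.37% of all tested genes. A set of 106 genes (0.983% of those tested) was called in both comparisons, over 8-fold higher in both and had a LARP1 IP level of at least 10 CPM. It held 27 of the 30 members, or 25.5% of the set. The members outside it were RPSA, RPS2 and RPS24.

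**Figure D1:**
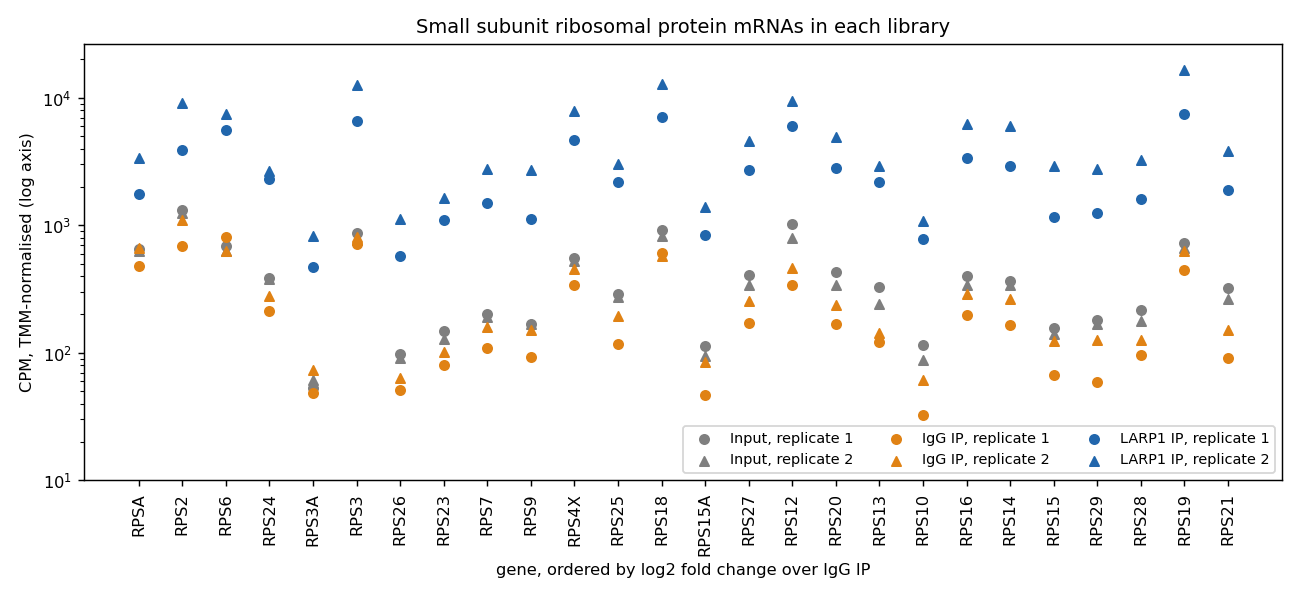
CPM (TMM-normalised, log axis) of 26 of the 30 members in the 6 libraries, with circles for replicate 1 and triangles for replicate 2, ordered by log2 fold change over the IgG IP. Both LARP1 IP points lie above all 4 control points for every gene drawn, and the gap is narrowest for RPSA (1768 and 3364 CPM against 479 to 664).

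The head of the subunit, its mobile upper domain, was represented by 13 members and the body with the platform by 17. Median log2 fold changes over the IgG IP were 4.26 for the head (range 3.65 to 4.48) and 3.98 for the body with the platform (2.17 to 4.57). Over Input they were 3.51 (3.08 to 4.12) and 3.31 (2.01 to 3.66). The ranges overlap, and the difference between the groups was not tested. Levels of different genes are not read below as differences in abundance, since transcript lengths were not used. Where genes are ranked by level or read count, the ranking picks genes to describe or marks low counts.

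RPS19 (ENSG00000105372.6, chromosome 19, 41860255 to 41872925) encodes a head protein needed for small subunit maturation and is the gene most often mutated in Diamond-Blackfan anaemia. It stood at 7517 and 16511 CPM in the LARP1 IP, 446 and 628 CPM in the IgG IP and 726 and 660 CPM in Input. Both LARP1 IP libraries were far above the controls, and replicate 2 was the higher of them. The log2 fold changes were 4.48 ± 0.51 (SE) over the IgG IP and 4.12 ± 0.50 over Input (edgeR adjusted p = 0.000179 and 0.000935). RPS3 (ENSG00000149273.14, chromosome 11, 75399518 to 75422302) lies at the mRNA entry channel and also acts in DNA repair. Its levels were 6615 and 12550 CPM in the LARP1 IP, 714 and 813 CPM in the IgG IP and 867 and 767 CPM in Input. The control libraries overlapped, and the log2 fold changes were 3.65 ± 0.46 and 3.55 ± 0.46 (edgeR adjusted p = 0.000278 and 0.000935).

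RPS15 (ENSG00000115268.9, chromosome 19, 1438396 to 1440495), which sits in the head near the decoding site, had 1160 and 2898 CPM in the LARP1 IP, 67.1 and 123 CPM in the IgG IP and 157 and 140 CPM in Input. The controls did not overlap each other, with Input the higher. Its log2 fold changes were 4.42 ± 0.55 and 3.77 ± 0.53 (edgeR adjusted p = 0.000263 and 0.00104). RPS16 (ENSG00000105193.8, chromosome 19, 39433137 to 39435949), whose tail reaches the tRNA site from the head, had 3360 and 6276 CPM in the LARP1 IP, 199 and 287 CPM in the IgG IP and 400 and 339 CPM in Input. The same order of groups was seen, with log2 fold changes of 4.31 ± 0.48 and 3.71 ± 0.47 (edgeR adjusted p = 0.000179 and 0.000935). RPS28 (ENSG00000233927.4, chromosome 19, 8321496 to 8323340), a small protein at the mRNA exit between head and platform, had 1605 and 3274 CPM in the LARP1 IP, 96.8 and 127 CPM in the IgG IP and 216 and 178 CPM in Input. Its log2 fold changes were 4.45 ± 0.49 and 3.63 ± 0.48 (edgeR adjusted p = 0.000179 and 0.000935). RPS12 (ENSG00000112306.7, chromosome 6, 132814569 to 132817564), a protein of the beak of the head, had 5991 and 9433 CPM in the LARP1 IP, 342 and 466 CPM in the IgG IP and 1021 and 801 CPM in Input. Input lay well above the IgG IP for this gene, and the log2 fold change was 4.25 ± 0.46 over the IgG IP and 3.08 ± 0.44 over Input (edgeR adjusted p = 0.000179 and 0.00111).

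Of the body and platform, RPS21 (ENSG00000171858.17, chromosome 20, 62387103 to 62388520), a small protein that contacts RPS2 and RPSA, had the highest log2 fold change over the IgG IP. It stood at 1893 and 3800 CPM in the LARP1 IP, 90.6 and 150 CPM in the IgG IP and 321 and 263 CPM in Input. The IgG IP was lower than Input in both libraries, so the 2 fold changes are unequal: 4.57 ± 0.51 over the IgG IP and 3.29 ± 0.48 over Input on the log2 scale (edgeR adjusted p = 0.000179 and 0.00123). RPS14 (ENSG00000164587.11, chromosome 5, 150442635 to 150449739), a platform protein whose loss of a copy marks the 5q- syndrome, had 2927 and 6061 CPM in the LARP1 IP, 166 and 263 CPM in the IgG IP and 369 and 343 CPM in Input. Its log2 fold changes were 4.39 ± 0.51 and 3.66 ± 0.49 (edgeR adjusted p = 0.000179 and 0.000935). RPS26 (ENSG00000197728.9, chromosome 12, 56041918 to 56044697), which lines the mRNA exit channel, had 571 and 1127 CPM in the LARP1 IP, 51 and 63 CPM in the IgG IP and 97.3 and 91.3 CPM in Input. The groups did not overlap. Its log2 fold changes were 3.90 ± 0.47 and 3.17 ± 0.45 (edgeR adjusted p = 0.000207 and 0.00111). RPS3A (ENSG00000145425.9, chromosome 4, 151099628 to 151104642), a platform protein contacted by initiation factors, had 470 and 822 CPM in the LARP1 IP, 48.5 and 72.7 CPM in the IgG IP and 52.7 and 60.8 CPM in Input. The controls overlapped, and the log2 fold changes were 3.41 ± 0.46 and 3.51 ± 0.46 (edgeR adjusted p = 0.000416 and 0.000935). Its 157 and 196 reads in the Input libraries were the fewest of any member.

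RPS6 (ENSG00000137154.12, chromosome 9, 19375715 to 19380236) is the body protein phosphorylated by S6 kinase downstream of mTORC1. It stood at 5554 and 7429 CPM in the LARP1 IP, 814 and 628 CPM in the IgG IP and 686 and 634 CPM in Input. IgG IP replicate 1 was the highest control library for this gene, in contrast to most members. The log2 fold changes were 3.17 ± 0.42 and 3.30 ± 0.42 (edgeR adjusted p = 0.000386 and 0.000935). RPS24 (ENSG00000138326.18, chromosome 10, 78033863 to 78056806), a body protein also mutated in Diamond-Blackfan anaemia, had 2323 and 2652 CPM in the LARP1 IP, 213 and 281 CPM in the IgG IP and 385 and 382 CPM in Input. Its LARP1 IP replicates were the closest of all members, with a ratio of 0.876. Its log2 fold changes were 3.33 ± 0.41 and 2.70 ± 0.40 (edgeR adjusted p = 0.000263 and 0.00135).

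RPS2 (ENSG00000140988.15, chromosome 16, 1962058 to 1964826), which helps form the mRNA entry channel, had 3877 and 9053 CPM in the LARP1 IP, 690 and 1094 CPM in the IgG IP and 1327 and 1243 CPM in Input. The groups did not overlap, but the fold changes were below most members, at 2.86 ± 0.49 and 2.33 ± 0.48 on the log2 scale (edgeR adjusted p = 0.00235 and 0.0114). RPSA (ENSG00000168028.13, chromosome 3, 39406720 to 39412542), known both as a subunit protein and as the laminin receptor precursor, was the lowest in both comparisons. It stood at 1768 and 3364 CPM in the LARP1 IP, 479 and 664 CPM in the IgG IP and 653 and 624 CPM in Input. The log2 fold changes were 2.17 ± 0.44 and 2.01 ± 0.44 (edgeR adjusted p = 0.00671 and 0.0148). Over Input, RPSA alone among the members also missed the threshold without LARP1 IP replicate 2 (log2 fold change 1.49, edgeR adjusted p = 0.0721) and with library sizes outside the 2 most abundant genes (0.95, edgeR adjusted p = 0.0556).

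The remaining 16 members lay between 3.89 and 4.43 over the IgG IP and between 3.16 and 3.65 over Input on the log2 scale, with edgeR adjusted p of at most 0.000347 and 0.00135. Their levels ran from 780 to 12888 CPM in the LARP1 IP libraries, from 32.8 to 608 CPM in the IgG IP and from 88.2 to 922 CPM in Input. Neighbours in the order of fold changes differed by less than the SE of either, apart from the step between RPSA and RPS2 over the IgG IP, which exceeded it.

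**Figure D2:**
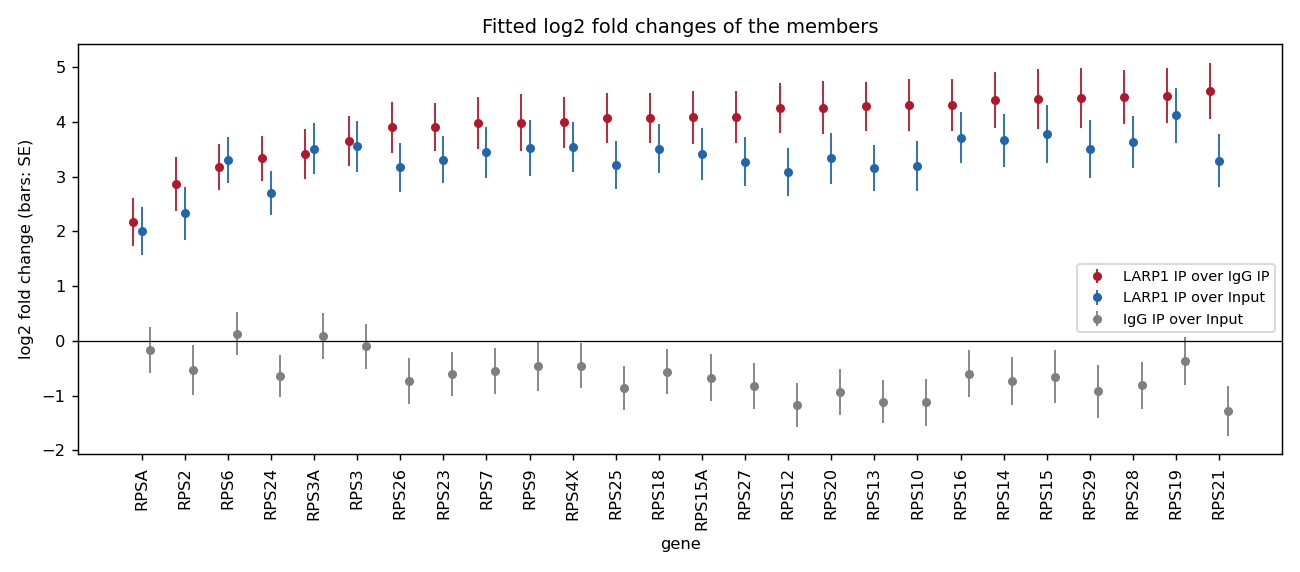
Log2 fold change (points) with its SE (bars) for 26 of the 30 members in the 3 comparisons, ordered by the LARP1 IP over IgG IP value. RPSA and RPS2 are the lowest in both LARP1 IP comparisons (2.17 and 2.86 over the IgG IP, 2.01 and 2.33 over Input), and the IgG IP over Input values run from -1.28 to 0.13.

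The replicates were also compared within each group. All 30 members were lower in LARP1 IP replicate 1 than in replicate 2 in CPM, with ratios from 0.4 (RPS15) to 0.876 (RPS24) and a median of 0.56, where 55.6% of all tested genes were lower. In the IgG IP 28 were lower in replicate 1, with a median ratio of 0.694, against 50.9% of all tested genes, and RPS6 and RPS18 were higher there, at ratios of 1.3 and 1.05. In Input the members' ratios ran from 0.866 to 1.36 with a median of 1.1, and they were not set against those of all tested genes.

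Each member was then expressed as a share of the 30-member total of its library, a quantity that does not depend on scaling between libraries. In both LARP1 IP libraries 9 members had a share above all 4 controls, 3 had a share below them and 18 overlapped. Set on the same denominator, 0.371% of all tested genes were above all 4 controls in both LARP1 IP libraries and 94.9% were below. The 9 included RPS4X, RPS7, RPS14, RPS15, RPS16, RPS19 and RPS28, and the 3 were RPS2, RPS24 and RPSA. RPSA made up 1.97% and 2.09% of the LARP1 IP total, 6.52% and 6.81% of the IgG IP total and 5% and 5.37% of the Input total. Its mean share in the LARP1 IP was thus 0.305 times that in the IgG IP and 0.392 times that in Input. RPS2 made up 4.32% and 5.63% of the LARP1 IP total, against 9.39% and 11.2% of the IgG IP total and 10.2% and 10.7% of the Input total. The share of RPS24 was 2.59% and 1.65%, against 2.9% and 2.88% for control IgG and 2.95% and 3.3% for Input. RPS19 moved the other way, with 8.37% and 10.3% of the LARP1 IP total, 6.08% and 6.44% of the IgG IP total and 5.56% and 5.69% of the Input total. RPS7 shows how small a separation can be, with 1.66% and 1.7% against 1.49% to 1.64% in the controls. These shares are descriptions of 2 libraries a group, and no test was made of them.

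**Figure D3:**
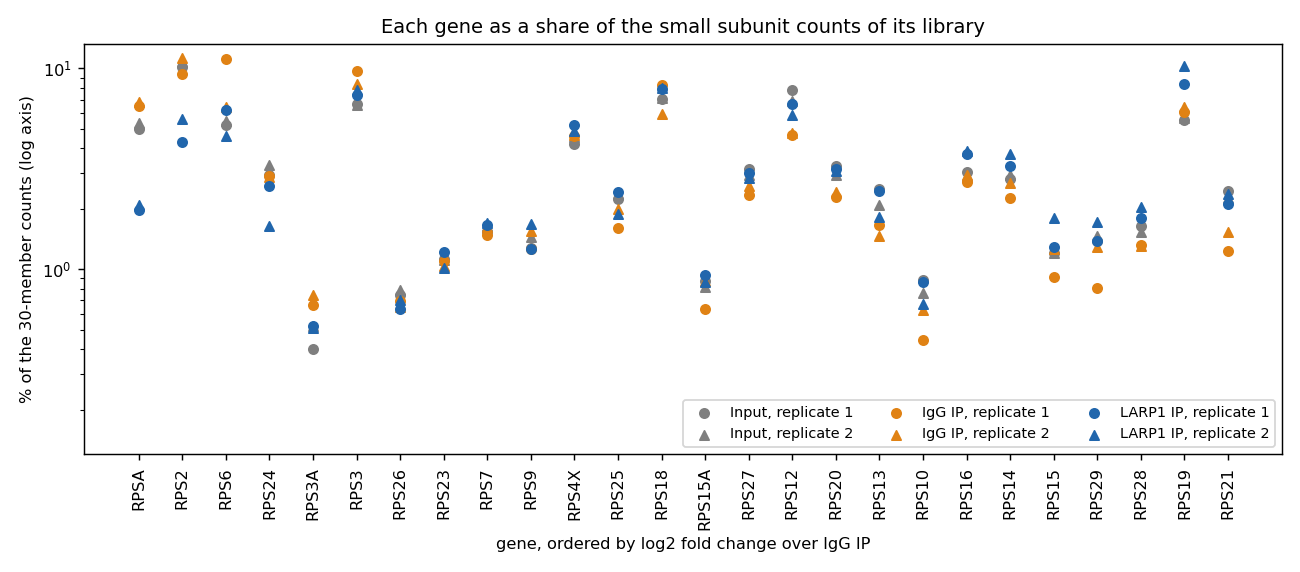
The same 26 members, each as a percentage of the 30-member counts in its library (log axis), with circles for replicate 1 and triangles for replicate 2, in the same gene order. RPSA and RPS2 lie below their controls in both LARP1 IP libraries, and RPS19 lies above them.

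The background of the members was described by setting the IgG IP against Input. By edgeR, 0 of the 30 passed the adjusted threshold, as did 0.0% of all tested genes in either direction. At an unadjusted p under 0.05 there were 5 members and 725 genes in all, and DESeq2 called 0 members. Log2 fold changes ran from -1.28 ± 0.45 for RPS21 to 0.13 ± 0.39 for RPS6 (SE; edgeR adjusted p = 0.704 and 0.971), with a median of -0.62 and 28 below 0, against a median of 0.01 for all tested genes. This sign depends on the scaling: with total counts the members' median was 0.88 and 20 of the 30 were called higher, as were 53.9% of all tested genes, whose median was 1.51. Relative to the median of all genes, the members' median was -0.63 with either scaling.

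RPSA and RPS2 were also compared with the other members in annotation, a feature chosen after their values were seen. By RefSeq coordinates, 9 of the 30 genes hold at least 1 small nucleolar RNA (snoRNA) gene within their span. Their median log2 fold change was 3.89 over the IgG IP and 3.33 over Input, against 4.09 and 3.44 for the other 21. Of the 9, 3 hold genes of the SNORA class, namely RPSA (SNORA6 and SNORA62), RPS2 (SNORA10 and SNORA64) and RPS12 (SNORA33), and RPS12 was at 4.25 over the IgG IP. Ribosomal protein genes have many processed pseudogenes, and RefSeq symbols of that form numbered 74 for RPSA, 59 for RPS26, 55 for RPS2 and 54 for RPS3A, and 4 to 40 for the other 26 members. Over the 30 members, the number of pseudogene symbols and the log2 fold change had Pearson's r of -0.64 and Spearman's rho of -0.37 over the IgG IP, and -0.67 and -0.58 over Input. Without RPSA, r was -0.45 and -0.51. The 26 members with fewer symbols had median log2 fold changes of 4.13 and 3.47. All 4 members with more than 50 symbols lay below 4.13 over the IgG IP, and RPS3A, at 3.51, was the only one of them above 3.47 over Input. The 26 ran from 3.17 to 4.57 and from 2.70 to 4.12, ranges that hold RPS3A and RPS26 but not RPSA and RPS2. The cut at 50 symbols was not set beforehand. The points are genes of the same libraries and not independent replicates. How reads that match both a gene and its pseudogenes were counted is not given in the sources used here, and the part of pseudogenes or snoRNAs in the lower fold changes was not tested.

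The length of the annotated pyrimidine run was set against the fold change as a description, across genes of the same libraries. Over the 17 members with a run within 5 bases of the start, RPSA among them, Pearson's r with the log2 fold change was 0.36 over the IgG IP and 0.21 over Input. For runs within 2 bases r was 0.35 and 0.18, and for runs within 10 bases 0.25 and 0.11. The 6 matched members without such a run (RPS4X, RPS7, RPS10, RPS15, RPS26 and RPS29) had median log2 fold changes of 4.15 and 3.48, with ranges of 3.90 to 4.43 and 3.17 to 3.77, against 4.07 and 3.31 for the 17. RPSA, with its 7-base run on the annotated start, and RPS29, with no run in the window, had log2 fold changes of 2.17 and 4.43 over the IgG IP. An absent run says only that no run has its first C in this window. In RPS7 and RPS10, runs of 11 and 13 bases begin at -8 and -6 bases from the annotated start and cross it. In RPS15 and RPS26, runs of 7 and 5 bases begin 9 and 6 bases after it. The medians of the 6 are therefore not those of members lacking any pyrimidine run near the start.

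**Figure D4:**
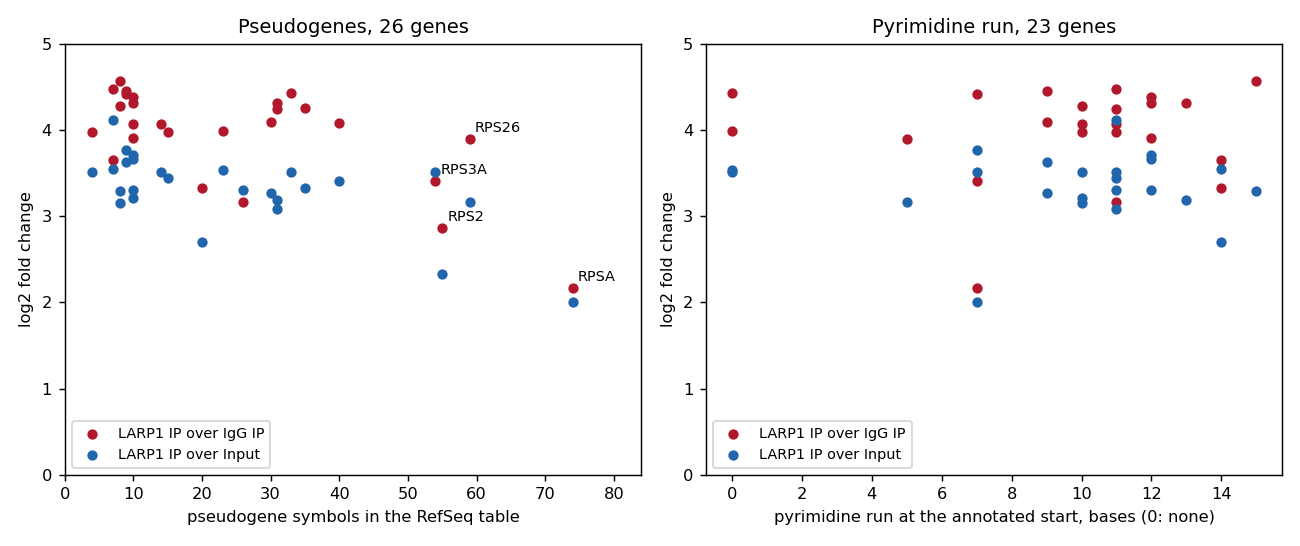
Log2 fold change of the LARP1 IP over each control against the number of pseudogene symbols in RefSeq (left, 26 members) and against the pyrimidine run starting within 10 bases of the annotated start (right, 23 members, 0 for none). RPSA, with 74 symbols, has the lowest values at left, and the members without a run at right lie at 3.99 and 4.43 over the IgG IP.

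By RefSeq coordinates, 6 members overlap another gene apart from snoRNA genes, among them RPS10, RPS19, RPS25, RPS28 and RPS29. The span of RPS10 lies with the readthrough gene RPS10-NUDT3, and that of RPS29 holds RN7SL1. Their log2 fold changes over the IgG IP were 4.31 ± 0.48 and 4.43 ± 0.55 (SE; edgeR adjusted p = 0.000179 and 0.000257). The strand setting of the counting is not given in the sources used here, so reads of overlapping genes may be shared.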

How the data were processed

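RNA was measured in 6 libraries, prepared, per the labels' protocols, from RNA not selected for poly(A), by a kit that marks strand. The authors deposited raw read counts per gene, 1 file per library, without normalization. The submitters' processing notes name featureCounts, Subread 1.20.6, TopHat2 2.1.1, Bowtie2, CASAVA 1.8 and GRCh38. Groups were taken from the titles. Members were selected by Ensembl ID, and their symbols, given with the IDs as the rule for choosing them, matched RefSeq (GRCh38.p14) for all 30. The members and lists were chosen with earlier results of these data known.

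The tests used edgeR 4.0.16 (R 4.3.3). filterByExpr (minimum count 10) left 10788 genes with 99.686% to 99.855% of each library's counts. All 6 libraries entered a quasi-likelihood fit with TMM scaling and a term for group, which leaves 3 residual degrees of freedom. Genes were called at 0.05 after Benjamini-Hochberg adjustment over all tested genes. Fold changes use edgeR's prior count of 0.125, and an SE is the fold change's size divided by the square root of F. The fit was also run on simulated counts, and the outcome, not reported here, is not used as support. DESeq2 1.42.0, other scalings and filters, a replicate block and leaving out each library were alternatives. Replicates differed by 4.727 to 29.75 times sampling noise (chi-square per degree of freedom), so none was counted as a duplicate.

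Described with a value in every library were the 3 highest and 3 lowest log2 fold changes in each LARP1 IP comparison, the 2 highest and 2 lowest mean CPM in Input, and RPS6, RPS3, RPS14, RPS19 and RPSA by role. Lists of other genes needed symbols and were not analysed here. Some members entered every count and median but are not reported here by name.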

Additional observations from a re-analysis of the deposited data

How the results depend on the processing

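All 30 members stayed higher than the IgG IP under every alternative run. Against Input, edgeR called 0 to 30 of them over the fits that left out each library, and members above both controls also ranged from 0 to 30, with 0 members, and 0 of all genes against Input, in either fit without an Input library. DESeq2 called 30 in each. The lone library of a group is then assumed to vary like the other groups. Medians ranged over these fits from 3.65 to 4.44 against the IgG IP and from 2.99 to 3.78 against Input by edgeR. Total counts gave medians of 5.08 against Input and 0.88 for the IgG IP, with 20 members higher there, where 53.9% of all genes were. In that comparison every member lay above 0, the lowest being RPS21 at 0.22, where the median of all genes was 1.51. Some members described with a value in every library turned from below 0 and were also called. They were RPSA at 1.34, RPS2 at 0.97, RPS19 at 1.13, RPS24 at 0.87, RPS16 at 0.90, RPS26 at 0.78, RPS3 at 1.42 and RPS14 at 0.76. Counts outside the 2 most abundant genes gave medians of 2.86 and 2.38, and shares of the libraries of 24.5%, 3.99% and 4.99% (LARP1 IP, IgG IP, Input). Relative to the median of all genes, the members' medians were 4.15, 4.11 and 4.10 against the IgG IP and 3.39, 3.33 and 3.30 against Input with TMM, total counts and this scaling. For the IgG IP, DESeq2 called 2 members lower without IgG IP replicate 2 and 1 without LARP1 IP replicate 1, in a range of 0 to 2, where 0.15% and 0.195% of all genes were lower. A pyrimidine run within 2 bases of the start was found in 11 members. TMM factors without the 30 members, chosen after seeing the data, kept all 30 calls in both LARP1 IP comparisons. Replicate numbers recur across groups with no batch named in the labels, and deviations of same-numbered libraries correlated at 0.134 to 0.519. With the replicate block all 30 members were higher in both LARP1 IP comparisons, with medians of 4.09 and 3.36, where 14.1% and 10% of all genes were higher, and 0 members were called in the IgG IP against Input. Apart from construction (fewer libraries, another scaling), the cause of these changes was not tested. Depth limits Input most: beyond the 2 most abundant genes its libraries hold at most 778680 counts.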
